A study of Mus musculus with 2 samples.

Results

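The C/EBP family was examined in RNA-seq data of mouse haematopoietic stem and progenitor cells that carried either of 2 forms of PML/RARa. Its members were the 6 gene models named Cebpa, Cebpb, Cebpd, Cebpe, Cebpg and Cebpz, of 34745 models listed in each of the deposited tables. PML/RARa joins PML, the scaffold of nuclear bodies, to the retinoic acid receptor alpha and drives acute promyelocytic leukaemia. Femoral marrow of C57BL/6 mice given 5-fluorouracil was enriched for progenitors, and the cells were transduced with lentivirus in 6 µg/ml polybrene. The groups were the wild-type fusion (WT) and the form labelled 2KR, with 1 library each, and the series title names 2 lysines of the fusion as its subject. Cells of both groups were kept in medium with SCF at 50 ng/ml and IL-3 and IL-6 at 10 ng/ml each. The medium also held hydrocortisone at 1 mM and 20% fetal bovine serum. Both groups had a spin at 1800 rpm for 40 min and 24 h of culture, and transduced cells were sorted before RNA extraction. The protocol also names an empty vector (pMSCV), which was not analysed here, so no value below has an untransduced or vector baseline. How many mice were used, their age and any pooling were not stated.

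C/EBP proteins are transcription factors of the basic leucine zipper (bZIP) class, which bind DNA as homodimers or heterodimers. In the marrow, C/EBP-alpha is required for commitment to granulocytes and monocytes, C/EBP-beta and C/EBP-delta are induced by cytokines and inflammatory signals, and C/EBP-epsilon acts late, in the formation of secondary granules. C/EBP-gamma lacks the activation domain of the others and pairs with them and with ATF4. Cebpz shares the family's name through its binding to the CCAAT box, but its protein has no leucine zipper and works in the nucleolus.

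Each form had 1 library, so differences could not be set against the spread between replicates, no test was run, and the results hold for this pair of libraries alone. Levels are given as CPM, counts scaled to library totals after TMM adjustment; these totals were 17606168 in WT and 20462011 in 2KR. Intervals are exact 95% intervals, Poisson for a level and Clopper-Pearson for a ratio, and cover counting error only. The size rule counted a model as different when the log2 ratio of CPM + 1, 2KR over WT, was at least 1 in size, among the 12466 models whose mean level reached 1 CPM. The markers of stem and progenitor cells were read in both libraries but did not move together. Cd34 was at 388 and 723 CPM in WT and 2KR (ratio 1.86, 1.81 to 1.92) and Flt3 at 18.0 and 32.6 CPM (1.81, 1.58 to 2.08), while Ly6a was at 135 and 89.2 CPM (0.661, 0.621 to 0.703) and Kit at 1359 and 1158 CPM (0.853, 0.838 to 0.868). In bulk samples such as these, fewer cells of a type and less RNA per cell cannot be told apart.

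Within the family, the cytokine-induced members Cebpb and Cebpd were several-fold lower in 2KR, Cebpa was moderately higher, and Cebpg and Cebpz were close between the libraries. Cebpe was near the limit of detection in both. Of the 6 members 5 passed the filter on low values. Among these, 2 were at least 2-fold lower in 2KR, 0 were at least 2-fold higher and 3 differed by less. Over all tested models 7.22% passed the rule, 4.56% being lower in 2KR and 2.66% higher.

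The promoters of Cebpa and Cebpb are shown because these members lay on opposite sides of a ratio of 1. The reference table held a promoter for 3 of the 6 members, Cebpa, Cebpb and Cebpg. Each stretch has 280 bases of RefSeq sequence (build GRCm38.p6), from 250 before the RefSeq start to 30 after it, on the plus strand. Capitals mark matches to any of 5 motifs searched on both strands. TATAAA is the core of the usual initiation element upstream of a start, and CCAAT is the element that gave the family its name. TTGCNNAA is a form of the site bound by C/EBP dimers. TGACG is the half-site of cyclic AMP response elements, which reads as CGTCA where it lies on the other strand. TTCNNNGAA is a palindrome bound by STAT factors.
Cebpa, chr7:35119043-35119322: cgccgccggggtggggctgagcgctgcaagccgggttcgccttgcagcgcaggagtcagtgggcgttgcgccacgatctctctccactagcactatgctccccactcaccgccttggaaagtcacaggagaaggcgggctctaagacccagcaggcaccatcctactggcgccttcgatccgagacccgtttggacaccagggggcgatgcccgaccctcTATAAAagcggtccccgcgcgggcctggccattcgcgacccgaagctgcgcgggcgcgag
Cebpb, chr2:167688665-167688944: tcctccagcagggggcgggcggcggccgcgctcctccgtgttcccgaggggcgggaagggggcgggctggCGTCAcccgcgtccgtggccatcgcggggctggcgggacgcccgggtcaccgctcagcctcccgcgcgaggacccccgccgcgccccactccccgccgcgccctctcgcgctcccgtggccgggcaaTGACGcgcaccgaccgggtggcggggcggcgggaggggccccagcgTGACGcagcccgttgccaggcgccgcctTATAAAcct

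Both printed stretches hold 1 match to TATAAA. In Cebpa it lies 30 to 25 bases before the RefSeq start. In Cebpb it lies 22 to 27 bases after the RefSeq start, not upstream of it. TATAAA was found in 13.1% of 32851 promoter windows of the same length. The Cebpb stretch holds 3 half-sites TGACG, at 180 to 176, 53 to 49 and 7 to 3 bases before the start, and the Cebpa stretch holds 0. At least 1 such half-site was found in 19.9% of all windows. The Cebpb stretch was 79.6% G and C and the Cebpa stretch 67.1%, against a median of 52.5% over all windows. The Cebpg window (not printed) held 2 CCAAT boxes, both read on the strand opposite to the gene, and the Cebpa and Cebpb windows held 0. CCAAT was found in 36.1% of windows. Matches to TTGCNNAA and TTCNNNGAA were 0 in all 3 members, with 10.4% and 7.83% of windows holding them. A match describes letters only, and occupancy of these promoters was not measured.

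Cebpa (ENSMUSG00000034957, chromosome 7, 35119293 to 35121928 in GRCm38, plus strand, protein coding) encodes the factor of granulocyte and monocyte commitment. It had 830 counts or 47.5 CPM (44.3 to 50.8) in WT and 1596 counts or 77.5 CPM (73.7 to 81.4) in 2KR. The 2 counting intervals did not overlap, and 2KR was the higher library. The ratio of 1.63 stayed under the size rule, with a log2 ratio of 0.69. The progenitor markers Cd34 and Flt3 had larger ratios, while Ly6a (0.661) and Kit (0.853) of the same list were below 1. The part of these markers in the difference of Cebpa was not tested. Cebpa was the 648th highest of 12466, and 8.64% of tested models were at least 1.5-fold higher in 2KR on the plain ratio. The mRNA gives full-length and shortened proteins from different start codons, which counts per gene do not separate. An antisense model overlaps Cebpa over 313 bases, with 4 and 9 counts.

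Cebpb (ENSMUSG00000056501, chromosome 2, 167688915 to 167690418, plus strand, a model of 1 exon) encodes a factor of emergency granulopoiesis and of macrophages. It had 223 counts or 12.8 CPM (11.1 to 14.5) in WT and 67 counts or 3.25 CPM (2.52 to 4.13) in 2KR. WT was the higher library, 3.92-fold (2.97 to 5.23), and the log2 ratio of -1.69 was the 218th lowest of 12466. The first 908 bases of Cebpb are overlapped by the antisense gene Tmem189, which had 25.5 CPM in WT and 25.7 CPM in 2KR. The labels do not say whether counting used strand, so reads of this overlap cannot be assigned to either gene with certainty. Tmem189 itself was level between the libraries, with a ratio of 1.01 (0.889 to 1.15). The nearest models that do not overlap Cebpb, Gm14320 and A530013C23Rik, had 3 and 2 counts in WT and 9 and 0 in 2KR.

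Cebpd (ENSMUSG00000071637, chromosome 16, 15887286 to 15888466, plus strand) encodes the acute phase member of the family. It had 622 counts or 35.6 CPM (32.8 to 38.5) in WT and 124 counts or 6.02 CPM (5.01 to 7.18) in 2KR. The log2 ratio of -2.38 was the 81st lowest of 12466 and the lowest among the tested members. On the plain ratio Cebpd was 5.91-fold lower (4.87 to 7.23), and 3.02% of tested models were at least 3-fold lower. The deposited model ends 1079 bases before the RefSeq end of Cebpd, so reads in the remaining 3′ part may not be in its count. The nearest gene models on either side, Mzt2 and Spidr, had ratios of 1.16 (0.95 to 1.42) and 1.08 (0.967 to 1.20).

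Cebpe (ENSMUSG00000052435, chromosome 14, 54710363 to 54712174, minus strand) encodes the late granulocyte factor, a known retinoic acid target in promyelocytic leukaemia cells. Its counts were 16 for WT and 7 for 2KR, or 0.915 CPM (0.523 to 1.49) and 0.34 CPM (0.137 to 0.70). The intervals of these levels overlapped, and the gene did not pass the filter on low values. The ratio was 0.371, with a wide counting interval of 0.129 to 0.954. Its neighbour Slc7a8, an amino acid transporter gene, was abundant at 661 and 571 CPM, and 1700123O20Rik, on the other side, had 38.8 and 35.9 CPM.

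Cebpg (ENSMUSG00000056216, chromosome 7, 35046422 to 35056573, minus strand) encodes the member without an activation domain. It had 905 counts or 51.8 CPM (48.4 to 55.2) in WT and 1165 counts or 56.5 CPM (53.3 to 59.9) in 2KR, a ratio of 1.09 (1.001 to 1.19). The intervals of the levels overlapped. Cebpg lies 62719 bases from Cebpa on chromosome 7, and the 2 models wholly between them had 0 counts in both libraries. The change in the count of Cebpa relative to that of Cebpg, 2KR over WT, was 1.49 (1.32 to 1.69), so these chromosomal neighbours differed from each other by more than counting error. On its other side lies Pepd, a peptidase gene, at 19.7 and 19.9 CPM. The 7 clone-named models beside or over Cebpa and Cebpg had from 0 to 15 counts per library.

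Cebpz (ENSMUSG00000024081, chromosome 17, 78919006 to 78937070, minus strand), the gene of the nucleolar CCAAT-binding protein, had the highest count of the members in both libraries. It had 1302 counts or 74.5 CPM (70.5 to 78.6) in WT and 1628 counts or 79.0 CPM (75.2 to 82.9) in 2KR. The ratio of 1.06 had an interval of 0.986 to 1.14, which held 1. Its antisense partner Cebpzos, which overlaps it over 1301 bases, had 10.4 and 8.49 CPM, a ratio of 0.82 (0.663 to 1.02). Ndufaf7, a gene of mitochondrial complex I assembly 64 bases from Cebpz, was at 13.7 and 18.7 CPM, a ratio of 1.37 (1.16 to 1.62), and Sult6b1, on the other side, had 0 counts in both libraries. Of all 6 members, the interval of the ratio lay wholly below 1 for 3, wholly above 1 for 2 and across 1 for Cebpz. The 3 below 1 include Cebpe, which did not pass the filter and is not among the tested models. Among all tested models it lay wholly below 1 for 28.5% and wholly above 1 for 31.6%, so an interval that leaves out 1 was common at this depth.

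**Figure D1:**
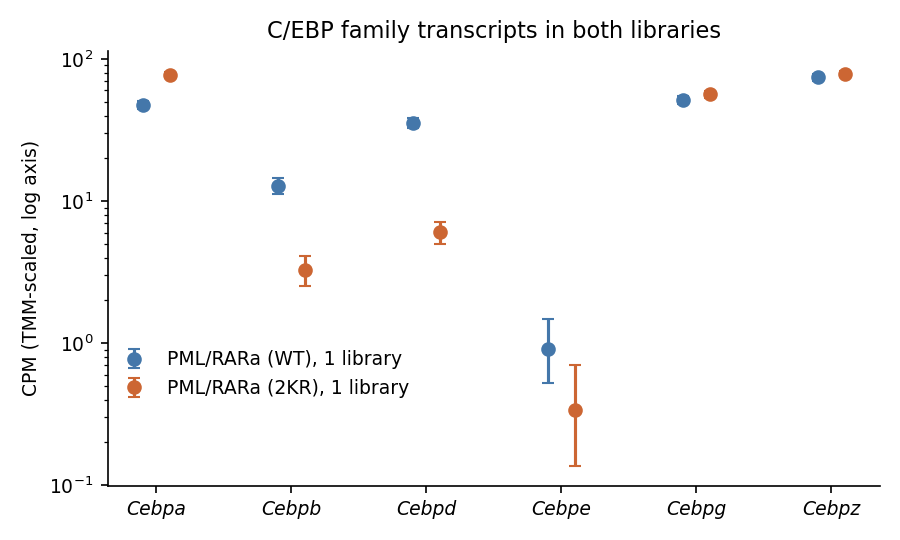
TMM-scaled CPM (log axis) of the 6 C/EBP members in the WT library (blue) and the 2KR library (orange), with exact 95% Poisson intervals that cover counting error only. Cebpb and Cebpd are lower in 2KR, Cebpa is higher (47.5 and 77.5 CPM), and Cebpe is under 1 CPM in both.

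**Figure D2:**
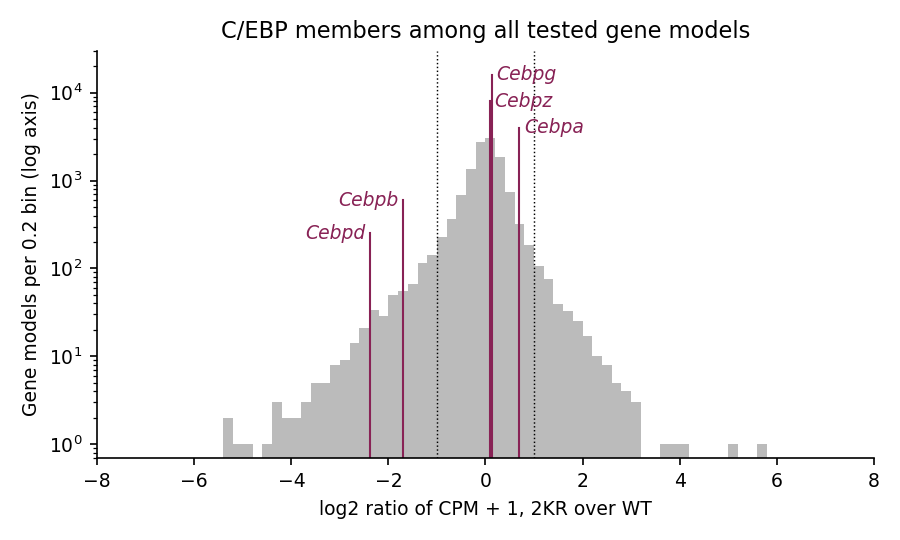
Number of gene models (log axis) in bins of the log2 ratio of CPM + 1, 2KR over WT, for the 12466 tested models, with lines at the 5 tested C/EBP members and dotted lines at the 2-fold rule. Cebpd (-2.38) and Cebpb (-1.69) lie in the lower tail, and Cebpa (0.69) stays under the rule.

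The balance among members was then compared within each library, which needs no scaling between libraries. Relative to Cebpb, the count of Cebpa changed by 6.40 (4.78 to 8.65), 2KR over WT, and relative to Cebpd by 9.65 (7.79 to 12.0). Relative to Cebpg, Cebpb changed by 0.233 (0.173 to 0.313) and Cebpd by 0.155 (0.124 to 0.192). Cebpb and Cebpd did not differ in equal measure, since their ratio changed by 1.51 (1.06 to 2.13). These are exact conditional 95% intervals of the 4 counts.

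Levels of different genes were compared per length. The deposited FPKM values (fragments scaled to length and library size) of Cebpa were 9.85 in WT and 16.3 in 2KR, but they rest on a length of 4787 bases, while the locus spans 2636. That length equals the exons of its transcripts added together, with shared bases counted again, as did the 7632 bases of Cebpg. CPM per kilobase of merged exons was therefore computed beside the FPKM, a scale chosen after the data were seen. On it, the order in WT was Cebpd at 30.1 (27.8 to 32.6), Cebpa at 18.0 (16.8 to 19.3), Cebpz at 16.0 (15.1 to 16.9), Cebpg at 9.21 (8.62 to 9.83), Cebpb at 8.48 (7.40 to 9.67) and Cebpe at 0.739 (0.423 to 1.20). The intervals of Cebpa and Cebpz overlapped, as did those of Cebpg and Cebpb, so these neighbours were not set apart by counting. In 2KR the order per kilobase was Cebpa at 29.4 (27.96 to 30.9), Cebpz at 17.0 (16.1 to 17.8), Cebpg at 10.1 (9.49 to 10.7), Cebpd at 5.10 (4.24 to 6.08), Cebpb at 2.16 (1.68 to 2.75) and Cebpe at 0.274 (0.11 to 0.565). No neighbours in this order had overlapping intervals. Cebpd led the family in WT and was the fourth in 2KR. On the deposited FPKM, Cebpz, at 18.2 in WT and 19.5 in 2KR, stood above Cebpa in both libraries. In WT, Cebpb at 8.42 stood above Cebpg at 6.74. The order within these pairs thus depended on the length used.

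The make-up of the 5 bZIP members shifted with these levels. Their summed FPKM was 55.7 in WT and 31.3 in 2KR. Cebpd took 53.8% of it in WT and 16.4% in 2KR, while Cebpa took 17.7% and 52.0%. Per kilobase of merged exons the share of Cebpa was 27.1% in WT and 62.6% in 2KR, and that of Cebpb with Cebpd was 58.0% and 15.45% (68.9% and 23.3% on FPKM). Both scales put Cebpd first in WT and Cebpa first in 2KR.

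**Figure D3:**
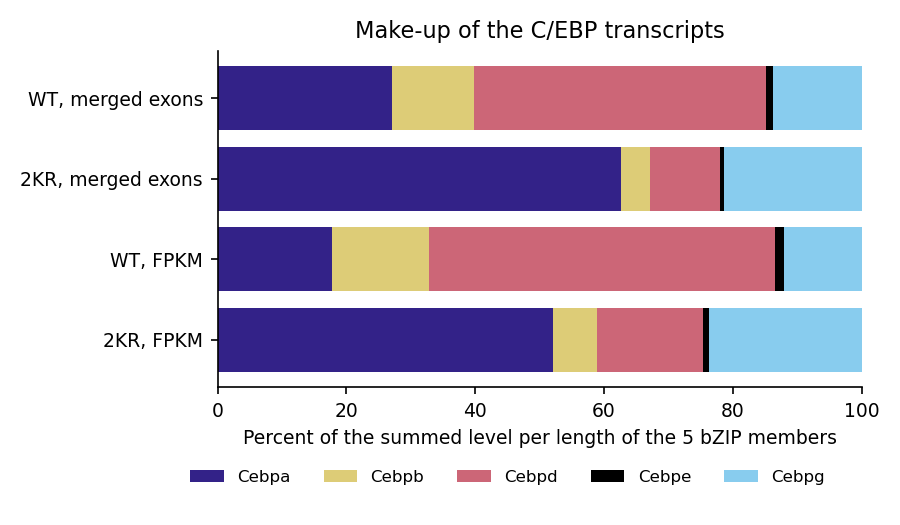
Percent of the summed level per length of Cebpa, Cebpb, Cebpd, Cebpe and Cebpg in each library, per kilobase of merged exons (upper bars) and as deposited FPKM (lower bars). Cebpd takes the widest part in WT on both scales and Cebpa in 2KR.

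Genes that act with, on or under the C/EBP factors were described by lists. Of 14 bZIP genes that can pair with C/EBP proteins or belong to related families, 11 were tested, 1 was at least 2-fold lower and 0 were higher, with a median log2 ratio of -0.17 against 0.02 over all tested models. The plain ratio was above 1 for 2 of them and below 1 for 9, where 52.3% of all tested models were above 1 and 47.7% below. The lower one was Fos, a subunit of AP-1, at 136 CPM in WT and 26.5 in 2KR. Jun, its usual partner, was at 137 and 74.3 CPM, under the rule. Atf4, the stress factor that pairs with C/EBP-gamma, was near level at 271 and 241 CPM. Batf, at 27.1 and 19.2 CPM, Dbp, at 19.8 and 15.0, and Tef, at 134 and 107, were under the rule.

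Among 9 regulators of C/EBP proteins or mRNAs, 1 was at least 2-fold lower and 0 were higher, 7 had a ratio above 1 and 2 below, and the median log2 ratio was 0.16. The Tribbles pseudokinases recruit the ligase COP1 to C/EBP-alpha and promote its degradation. Trib2 was at 17.7 CPM (310 counts) in WT and 2.77 CPM (57 counts) in 2KR, 6.41-fold lower (4.82 to 8.66). Trib1 had 34.7 and 16.9 CPM, 2.05-fold lower (1.80 to 2.35) on the plain ratio. It stayed just under the size rule, with a log2 ratio of -0.995. Trib3 was on the other side of 1, at 11.5 and 14.3 CPM. Cop1, listed under its older symbol Rfwd2, had 37.9 and 42.6 CPM. Calr, whose protein can bind C/EBP mRNAs, had 1230 and 1899 CPM, a ratio of 1.54 (1.52 to 1.57). Cdk2 was at 90.1 and 110 CPM and Pcbp2 at 478 and 508 CPM.

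Of 12 factors known to act on Cebp genes, 1 was at least 2-fold higher, 1 was at least 2-fold lower and 10 were under the rule. Ratios lay above 1 for 6 of these factors and under 1 for the other 6, and the median log2 ratio was 0.03. Mecom, whose protein represses Cebpa, had 0 counts in WT and 997 in 2KR. With the 2KR count taken as read, this is at least 282-fold higher against a floor of 3 counts per library, and the exact 95% lower limit of the ratio, which covers the counting error of both libraries, was 229. With Mecom at this bound the median was the same, which was fixed in advance because Mecom already had the highest log2 ratio of the list. Klf5, a Krüppel-like factor of granulocyte differentiation, was at 18.4 and 8.10 CPM, 2.27-fold lower (1.88 to 2.76). Stat3, which carries the IL-6 signal to Cebpb and Cebpd, was level at 354 and 352 CPM. The glucocorticoid receptor gene Nr3c1 was at 91.8 and 96.6 CPM, Runx1 at 335 and 379, and Creb1 at 120 and 147. Gata2 was at 683 and 447 CPM and Myb at 613 and 851.

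Targets were read by the member best known to act on them. Of 11 early granulocyte genes under C/EBP-alpha, 8 were tested, 2 were at least 2-fold higher and 0 were lower, 5 had a ratio above 1 and 3 below, and the median log2 ratio was 0.42. Ctsg, the protease cathepsin G, had 212 and 487 CPM, and Mpo, myeloperoxidase, had 16.2 and 36.0 CPM. Csf3r, the receptor of granulocyte colony-stimulating factor, had 18.9 and 36.9 CPM, a ratio of 1.96 (1.72 to 2.23) that stayed under the rule. Gfi1, a transcriptional repressor needed for granulocyte commitment, had 66.5 and 101 CPM. The 3 genes below 1 were Ms4a3, a membrane protein gene of granulocyte progenitors, and the cytokine receptor genes Il6ra and Csf2ra. Ms4a3 had 25 and 12 counts, a plain ratio of 0.407 (0.186 to 0.841) that the added 1 CPM brought to a log2 ratio of -0.62. Il6ra had a ratio of 0.862 (0.721 to 1.03) and Csf2ra of 0.865 (0.689 to 1.08), both with intervals that held 1. The 3 genes that were not tested had few counts in WT and 2KR: Elane 5 and 10, Prtn3 6 and 14, and Csf1r 10 and 12. Mpo is also counted among the neutrophil markers below.

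Of 11 secondary granule genes under C/EBP-epsilon, 3 were tested and 0 differed 2-fold. All 3 had a ratio below 1, with a median log2 ratio of -0.26. Lcn2, an iron-siderophore binding protein, had 28.4 and 15.1 CPM, and Mmp8, the neutrophil collagenase, had 14.7 and 12.1 CPM. Ngp had 26 counts in each library, and the interval of its ratio, 0.849 (0.473 to 1.52), held 1. The other 8 had from 0 to 30 counts per library, with Camp and Cd177 at 0 in both. Mmp9, the gelatinase, was the highest of these and lay on the other side of 1, with 8 and 30 counts and a ratio of 3.18 (1.43 to 8.03).

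Of 14 inflammatory genes under C/EBP-beta and C/EBP-delta, 6 were tested, all 6 had a ratio below 1, 1 of them was at least 2-fold lower, and the median log2 ratio was -0.48. Ptgs2, the inducible cyclooxygenase, had 738 and 83.3 CPM. Cxcl2 had 153 and 102 CPM, Il6 112 and 85.7 CPM, and Nos2 8.87 and 4.61 CPM, all under the rule. The tested genes are those with a mean of at least 1 CPM, and the other 8 had from 0 to 19 counts per library. Among these, Cd14 (3 and 19 counts) and Tnfaip6 (0 and 10) were higher in 2KR, and Saa3 (15 and 0) was lower. The counting intervals of these ratios left out 1.

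Cebpz was set beside 12 genes of ribosomal subunit assembly and of the methyltransferase that CEBPZ brings to promoters. All 12 were tested, 11 had a ratio above 1, and 0 differed 2-fold, with a median log2 ratio of 0.15. Over all tested models 52.3% had a ratio above 1. Noc2l, at 144 and 201 CPM, Nop2, at 66.7 and 90.6, and Wdr12, at 39.3 and 52.9, had larger ratios than Cebpz itself. Noc4l was at 42.1 and 51.5 CPM and Rrp1 at 142 and 154. Mettl14, at 50.1 and 45.7 CPM, was the 1 gene below 1.

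**Figure D4:**
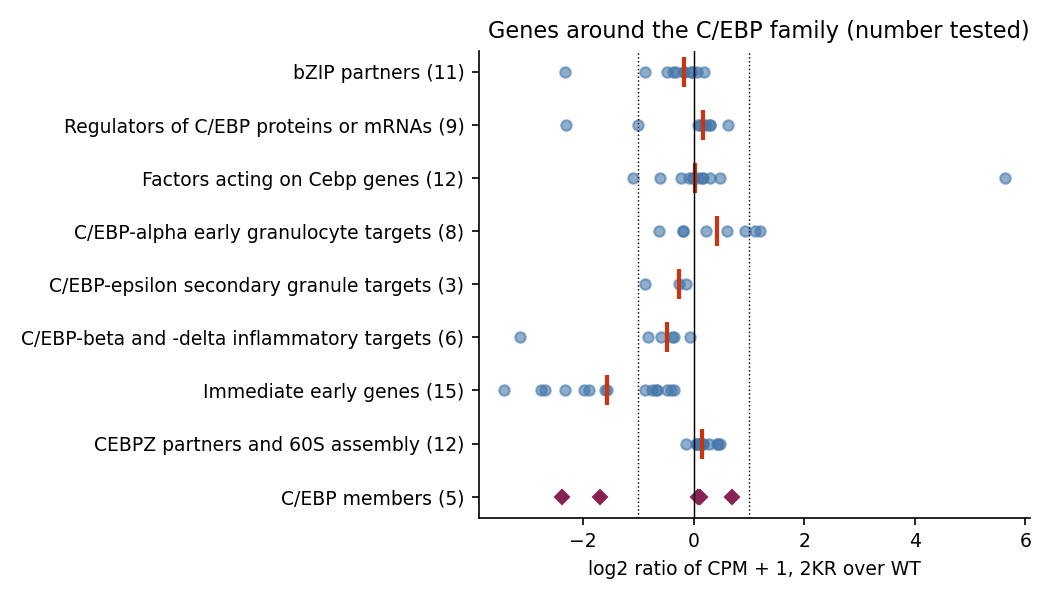
Log2 ratio of CPM + 1, 2KR over WT, for each tested gene (blue points) of 8 lists around the C/EBP family, with the list median (red bar), the 5 tested members (diamonds) and dotted lines at the 2-fold rule. All 15 tested immediate early genes lie below 0, and the point near 6 is Mecom.

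Immediate early genes and markers of several other cell types also differed between the libraries. Of 16 immediate early genes, which respond within minutes to stimuli, 15 were tested, all 15 had a ratio below 1 and 8 were at least 2-fold lower, with a median log2 ratio of -1.57. Their summed level was 4905 CPM in WT and 1811 CPM in 2KR. Fos and Jun are also in the bZIP list. Egr3 had 49.0 and 3.64 CPM, Nr4a1 126 and 17.6, Fosb 10.1 and 0.728, Egr1 2120 and 699, and Zfp36 564 and 151. Cell type markers moved both ways.

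Of 6 monocyte and macrophage markers, 5 were tested, 2 were at least 2-fold lower and 1 was higher, and their summed level was 255 CPM in WT and 114 in 2KR. The lower ones were the chemokine receptors Cx3cr1, at 101 and 20.7 CPM (4.89-fold), and Ccr2, at 118 and 56.2 CPM (2.10-fold). Ly6c2 was higher, at 0.858 and 6.31 CPM (7.35-fold, 4.30 to 13.5), and Adgre1 was at 6.92 and 13.4 CPM, a ratio of 1.93 under the rule. Csf1r, the defining receptor, had 10 and 12 counts.

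Of 7 mast cell and basophil markers, 6 were tested, 5 were lower and 1 was higher, summing to 6419 and 3348 CPM. Most of this sum was Cpa3, the mast cell carboxypeptidase, at 5468 and 2525 CPM. Hdc had 749 and 371 CPM and Ms4a2 had 3.77 and 0.874 CPM. The protease gene Cma1 had 62 and 2 counts. For Prss34 the counts were 82 in WT and 0 in 2KR. With the WT count taken as read, this is at least 32.2-fold lower against a floor of 3 counts per library. The exact lower limit of the fold difference, which covers the counting error of both libraries, was 25.6. The basophil protease gene Mcpt8 was the higher one, at 190 and 450 CPM (2.37-fold), and Fcer1a had 0 counts in both.

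Among the tested markers of other lineages, Pf4, Lck and Mpo were at least 2-fold higher in 2KR by the size rule and 0 were at least 2-fold lower. Of 4 megakaryocyte markers, 3 were tested and 1 was higher, summing to 992 and 1269 CPM: Pf4, platelet factor 4, was at 121 and 406 CPM (3.35-fold, 3.19 to 3.52), while Itga2b was level at 867 and 859 CPM and Gp9 had 3.09 and 4.80 CPM. Among erythroid markers 3 were tested and 0 differed 2-fold, summing to 15.6 and 25.9 CPM. Hba-a1 had 10.7 and 20.1 CPM, Klf1 1.09 and 1.89, and Epor 3.83 in each. Of 3 T lymphoid markers, 2 were tested and 1 was higher, summing to 10.5 and 19.8 CPM. Lck, a kinase gene, had 6.35 and 17.8 CPM (2.81-fold), while Cd3g had 4.12 and 1.94 CPM (2.12-fold lower on the plain ratio, under the rule) and Cd3e was at 0. Of 5 neutrophil markers, 2 were tested and 1, Mpo, was higher, and the sum was 18.1 and 38.0 CPM, with Camp at 0. Of 3 stromal markers, 2 were tested and 0 differed 2-fold by the size rule. The 3 summed to 6.35 and 11.2 CPM, with Cdh5 at 4.63 and 9.27 CPM and Col1a1 at 29 and 17 counts. Col1a2, which did not pass the filter, had 1 and 23 counts, a ratio of 19.5 (3.17 to 804). The summed levels of the 3 eosinophil markers and the 3 B lymphoid markers were under 1 CPM in both libraries, with Epx and Pax5 at 0. The part of these genes and cells in the C/EBP differences was not tested.

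The genes most like each tested member were taken as the nearest in the pair of values log2(CPM + 1), which with 2 libraries describes only level and ratio. For Cebpd these were Ggnbp1, with 37.1 and 5.73 CPM, and Lpxn, with 31.1 and 6.07 CPM. For Cebpb they were Klrg2, with 12.5 and 3.40 CPM, and Moxd1, with 12.8 and 3.01 CPM. For Cebpa they were Plekha7, with 48.5 and 77.9 CPM, and Crk, with 47.2 and 75.3 CPM. Mr1 and Mak16 were nearest to Cebpg, and Dhx33 and Plekho1 to Cebpz.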

How the data were processed

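RNA-seq libraries of progenitors with PML/RARa (WT) and PML/RARa (2KR), 1 each, were grouped by the infection given per the labels. The submitters' processing notes name HISAT2 2.0.4 and build GRCm38, while the counter, annotation release and strandedness were not stated. Each deposited table holds, per the file headers, the authors' raw read count and FPKM of each gene model. The deposited FPKM equalled the count divided by a fixed length and the library total, within 0.1%, in all 15403 models counted in both libraries. Of 9531 models with several transcripts and the same coordinates in GENCODE M21, 8193 had a length at least 10% over the merged exons.

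Counts were scaled on the whole table with TMM (edgeR 4.0.16, R 4.3.3; factors 0.9931 for WT and 1.0070 for 2KR), then handled in Python 3.11.15 with scipy 1.17.1, pandas 2.3.3, numpy 2.4.6 and matplotlib 3.10.9. DESeq2 1.42.0 gave alternative size factors. The ratio script was checked on simulated counts. The depth of 17606168 and 20462011 counts sets counting error, and variation between cultures was not measured. Exons came from GENCODE M21, where 34267 models matched, and promoters from RefSeq.

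The rule named all 6 members, from each list up to 4 tested genes with the largest log2 ratio in size and the 2 with the highest mean, the 2 genes nearest to each member in level, and its neighbours (clone-named models only as a range). Stat3, Nr3c1, Runx1, Creb1, Trib3, Cop1, Csf1r, Fcer1a, Camp, Cd177, Epx, Pax5 and Cd3e were named after their values were seen. So were Il6ra, Csf2ra, Elane, Prtn3, Mmp9, Cd14, Tnfaip6, Saa3, Col1a2 and Mettl14. The members and lists were chosen with earlier results of these data known, and the promoter window and motifs after the sequences were seen.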

Additional observations from a re-analysis of the deposited data

How the results depend on the processing

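Cebpb and Cebpd were the 2 members at least 2-fold lower in 2KR under all 9 alternatives tried, and 0 members were at least 2-fold higher under any of them. A pseudocount of 5 CPM moved the log2 ratio of Cebpb to -1.11 and of Cebpd to -1.88, since adding a constant shrinks ratios of low genes. The other alternatives for the log2 ratio were a pseudocount of 0.1, library totals, DESeq2 size factors, median centring and FPKM + 1. Under these the log2 ratio of each member moved by less than the distance from its ratio to the limits of its counting interval. A pseudocount of 0.1 took Cebpb to -1.94, Cebpd to -2.54 and Cebpe, which did not pass the filter, from -0.52 to -1.21. On FPKM + 1 Cebpb was at -1.57. Over all models, 331 were at least 2-fold higher and 569 lower; these counts were 147 and 297 with a pseudocount of 5, 166 and 282 on FPKM + 1, and 207 and 377 with a mean of at least 5 CPM, where fewer models were tested. Of the shares within the family, that of Cebpa in WT was 17.7% on FPKM, 27.1% per merged exon length and 32.0% of plain counts, and in 2KR 52.0%, 62.6% and 53.9%. By plain counts, which favour long genes, Cebpg led in WT with 34.9%. No paired analysis was possible because each form had 1 library, and no library could be left out. Depth limited Cebpe, whose 16 and 7 counts leave a wide interval.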
